A study of Mus musculus with 119 samples.

Results

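The Zfp36 family of mRNA-decay factors was followed through every library of an RNA-seq study of LPS-stimulated mouse bone marrow-derived macrophages (BMDMs). Its members were taken by symbol as the rows named Zfp36, Zfp36l1 and Zfp36l2, which are 3 of the 18098 genes measured. All 3 passed the filter on low values in both fits described here. The relative Zfp36l3 has a row too, but it lay between -2.17 and -2.13 on the log2 scale in all libraries, at the floor of the scale, and was not tested.

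The study asked how the kinase TPL-2, which is encoded by Map3k8 and activates the MKK1/2-ERK1/2 pathway, shapes the transcriptional response to LPS, a ligand of TLR4. All cells were grown from bone marrow of C57BL/6(NIMR) mice in L-cell conditioned medium, and LPS was added at 100 ng/ml. The libraries fell into 25 groups. Wild-type (WT) BMDMs gave 6 libraries each without LPS and after 0.5 h and 1 h with it, and 4 after 2 h. Map3k8[D270A] BMDMs, whose TPL-2 lacks kinase activity, gave 6 libraries at each of those 4 times. Elk1-/-Elk4-/- BMDMs lack both of these ternary complex factors, which ERK1/2 phosphorylate, and gave 4 libraries at each time. Nfkb1[SS/AA] BMDMs carry an Nfkb1 product, p105, that is not phosphorylated at the serines needed for its breakdown and the release of TPL-2, and gave 6 libraries each at 0, 0.5 and 1 h. The other libraries were of WT cells with an inhibitor. The MKK1/2 inhibitor PD0325901 at 0.1 µM was used for 10, 40 or 70 min without LPS (3 libraries each) or from 10 min before 0.5 or 1 h of LPS (6 each), and its solvent DMSO for 10 min without LPS (3 libraries). RSKi47 at 2 µM, which inhibits the RSK kinases downstream of ERK1/2, was used for 10 min without LPS (4 libraries) or from 10 min before LPS, with 3 libraries at 0.5 h and 4 each at 1 and 2 h.

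The alleles are carried by all cells of the animal, so the cultures lack the wild-type products from before their differentiation on. The only WT libraries are those that the labels place, with Map3k8[D270A], in the TPL-2 experiment. They serve as the control for all arms, and for every arm except Map3k8[D270A] the arm and the experiment cannot be told apart. There is no library of DMSO with LPS. The labels do not say whether replicates came from separate animals, so p values measure the spread between these samples. In bulk RNA, fewer cells that express a gene and less of its RNA per cell cannot be told apart.

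ZFP36 (also called tristetraprolin or TTP), ZFP36L1 and ZFP36L2 are zinc finger proteins that bind AU-rich elements in the 3′UTRs of mRNAs and recruit the CCR4-NOT deadenylase and decapping factors, so that the bound mRNA is shortened and degraded. In macrophages TTP limits the mRNAs of TNF and other cytokines and chemokines, and its own mRNA is an immediate early transcript and a target of TTP. Phosphorylation by the p38-MK2 pathway stabilises TTP and holds back its activity, and dephosphorylation by PP2A restores it. ZFP36L1 and ZFP36L2 are best known from lymphocyte development and early embryos.

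The promoter sequences are shown because the mutants remove or silence factors of the ERK1/2 pathway, among them the ternary complex factors ELK1 and ELK4. Ternary complex factors bind ETS motifs beside CArG boxes together with serum response factor. The study names ELK3 as another of them, and no mutant here targets it. The sequences come from RefSeq on GRCm38.p6 and run, on the minus strand, from 250 bases before to 50 after the gene start. The table of promoters held 2 of the 3 members, Zfp36 (chr7:28379179-28379478) and Zfp36l1 (chr12:80112964-80113263). Capitals mark the motifs that were found, which in Zfp36 are an EGR motif, an ETS motif and a CArG box, in this order, and in Zfp36l1 an AP-1 motif and a TATA motif.
Zfp36 promoter: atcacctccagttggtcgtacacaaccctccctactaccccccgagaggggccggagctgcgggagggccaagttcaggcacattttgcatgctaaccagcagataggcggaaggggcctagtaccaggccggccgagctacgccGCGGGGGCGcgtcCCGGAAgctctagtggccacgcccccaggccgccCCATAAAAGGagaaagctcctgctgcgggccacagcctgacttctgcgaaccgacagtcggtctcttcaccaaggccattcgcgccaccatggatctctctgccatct
Zfp36l1 promoter: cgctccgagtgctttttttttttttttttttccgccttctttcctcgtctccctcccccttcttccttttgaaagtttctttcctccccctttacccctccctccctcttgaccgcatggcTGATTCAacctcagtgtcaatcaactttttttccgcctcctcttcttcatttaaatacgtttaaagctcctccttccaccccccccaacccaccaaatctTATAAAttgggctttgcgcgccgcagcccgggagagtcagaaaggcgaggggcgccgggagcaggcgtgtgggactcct
Both strands were searched for the CArG box, the NF-κB motif, CCGGAA and GGAAGT (ETS), TGANTCA (AP-1), TGACGTCA (CRE), GCGTGGGCG and GCGGGGGCG (EGR), and TATAAA. In Zfp36 the CArG box CCATAAAAGG lies at bases -58 to -49 from the start, CCGGAA at -92 to -87 and GCGGGGGCG at -105 to -97. A CArG box is present in 1.64% of the 32544 promoters of the same length, CCGGAA in 15% and GCGGGGGCG in 2.93%. In Zfp36l1 the AP-1 motif TGATTCA lies at -129 to -123, with 7.79% of promoters holding this motif, and TATAAA at -29 to -24, with 13.6%. The remaining motifs, which were GGAAGT (23.7% of promoters), TGACGTCA (1.8%), GCGTGGGCG (0.618%) and that of NF-κB (4.53%), were in neither window. A match describes letters and is no test of binding.

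The genes lie on chromosomes 7, 12 and 17, at chr7:28376784-28379228 for Zfp36, chr12:80107760-80113013 for Zfp36l1 and chr17:84183924-84187947 for Zfp36l2, all on the minus strand of GRCm38. The AU-rich element TTATTTATT, the optimal binding site of this family, was searched for in the longest annotated 3′UTR of each gene (GENCODE M21), because the members can be targets of their own family. This search was added after the expression values were seen. Each of the 3 members holds 1 copy, 589 bases after the stop codon in Zfp36 (chr7:28376950-28376979), 1404 in Zfp36l1 (chr12:80108166-80108195) and 821 in Zfp36l2 (chr17:84184913-84184942). The windows are shown with the element in capitals, and that of Tnf (chr17:35199688-35199717), the best known target, stands beside them, with 5 copies in its 3′UTR, some overlapping.
Zfp36 element: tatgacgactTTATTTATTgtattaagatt
Zfp36l1 element: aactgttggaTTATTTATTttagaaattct
Zfp36l2 element: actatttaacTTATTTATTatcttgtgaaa
Tnf element: tttgcacttaTTATTTATTATTTATTTATT
Of 21005 genes with a 3′UTR, 1610 (7.66%) hold the element. Among 20 genes listed as known targets of the family, 10 (50%) hold it. Their 3′UTRs have a median of 651 bases against 961 for all genes. The family binds this element, so the share describes the list and is no test. Of the same 20 genes, 17 hold the shorter core TATTTAT, which 27.6% of all genes hold.

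The deposited values are normalised and on a log2 scale, from below 0 to 19.81, and the depth of each library is not known. The 8 macrophage markers examined were all tested and their summed level was 18.35 to 19.23 in every library, whereas T cell markers summed to -0.02 to 0.31 and B cell markers to 3.03 to 4.02. Markers of neutrophils and their precursors (5.95 to 10.65) and of fibroblasts (3.61 to 9.41) varied more between libraries. Elk1 was at 6.17 to 6.59 in the Elk1-/-Elk4-/- libraries against 8.55 to 9.49 in all others, and Elk4 at 5.51 to 5.88 against 6.88 to 8.56. The Map3k8 and Nfkb1 alleles change residues and are not checked by mRNA level. RSKi47 replicate 4 stood apart from its group at each time it was sequenced, with a root mean square distance of 1.42 to 1.79 times the group median, and so did Nfkb1[SS/AA] replicate 2 at 1 h (1.65 times). No threshold was set for this, and Map3k8[D270A] replicate 4 (1.33 to 1.40 times at 0, 0.5 and 1 h) and Nfkb1[SS/AA] replicate 4 at 0.5 h (1.39 times) came next. Leaving out Map3k8[D270A] replicate 4 changed 1 call of a member, that of the difference of Zfp36 responses in Map3k8[D270A] cells at 2 h. Leaving out Nfkb1[SS/AA] replicate 4 changed no call of a member. The members' differences from WT without RSKi47 replicate 4 and Nfkb1[SS/AA] replicate 2 stand beside the results. Duplicated libraries were looked for, and even the closest libraries shared 0 values.

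In WT BMDMs, LPS raised Zfp36 within 0.5 h and the rise had partly receded by 2 h. Without LPS its level ran from 11.83 to 11.99 over 6 libraries (median 11.97). It ran from 14.74 to 15.29 at 0.5 h (median 15.02) and from 14.49 to 14.96 at 1 h (median 14.73), and the 4 libraries at 2 h were at 13.35, 13.47, 13.64 and 13.22. Every stimulated library was above every unstimulated one. The log2 difference from unstimulated cells was 3.09 (SE 0.09, adjusted p = 3.95e-34 by limma) at 0.5 h, or 8.54-fold, which 12 of the 11884 tested genes exceeded. It was 2.81 (SE 0.09, adjusted p = 8.45e-33) at 1 h and 1.49 (SE 0.10, adjusted p = 6.01e-19) at 2 h, where the level had fallen 2.50-fold from that at 1 h (log2 difference -1.32, adjusted p = 1.21e-16). The small fall from 0.5 to 1 h (-0.28, adjusted p = 0.0111) was carried by WT replicates 7 to 9, in which it was -0.55 (adjusted p = 5.16e-04), while it was -0.02 (adjusted p = 0.875) in WT replicates 4 to 6. Many genes changed: 11.6% of tested genes passed the threshold of an adjusted p below 0.05 at 0.5 h, 46.8% at 1 h and 71.5% at 2 h, with 40.3% passing between 0.5 and 1 h and 65.3% between 1 and 2 h.

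Zfp36l1 followed a different course, with a smaller rise that was level from 0.5 to 1 h and then turned to a fall below the starting level. In WT cells it ran from 11.67 to 11.94 without LPS (median 11.82), from 12.93 to 13.24 at 0.5 h (median 13.11) and from 13.01 to 13.40 at 1 h (median 13.17), and it was at 10.47, 10.60, 10.89 and 10.64 at 2 h. The 2 h libraries were all below, and those at 0.5 and 1 h all above, the unstimulated ones. The log2 difference from unstimulated cells was 1.28 (SE 0.06, adjusted p = 3.22e-24) at 0.5 h, 1.35 (SE 0.06, adjusted p = 2.87e-26) at 1 h and -1.17 (SE 0.07, adjusted p = 8.91e-22) at 2 h. Between 1 and 2 h the mRNA fell 5.74-fold (log2 difference -2.52, adjusted p = 1.96e-35), and only 7 of 11884 genes fell further in this interval. From 0.5 to 1 h the difference was 0.08 (adjusted p = 0.364).

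Zfp36l2 rose least and was below its starting level by 1 h, when Zfp36 and Zfp36l1 were above theirs. In WT cells it ran from 12.21 to 12.48 without LPS (median 12.41), from 12.61 to 12.94 at 0.5 h (median 12.86) and from 11.42 to 11.74 at 1 h (median 11.51), and was at 10.28, 10.43, 10.24 and 10.32 at 2 h. As for the other members, no group of stimulated libraries overlapped the unstimulated one, and over all tested genes 8.23%, 29.5% and 58% were apart in this way at 0.5, 1 and 2 h. The log2 difference from unstimulated cells was 0.43 (SE 0.06, adjusted p = 1.78e-07) at 0.5 h, -0.85 (SE 0.06, adjusted p = 3.32e-18) at 1 h and -2.07 (SE 0.07, adjusted p = 2.78e-33) at 2 h, a 4.20-fold fall that 22 genes exceeded. The fall had begun by 1 h, with a difference of -1.29 from 0.5 h (adjusted p = 1.95e-25), at a time when Zfp36l1 was still at its highest. The plot of levels shows the courses in every arm.

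**Figure D1:**
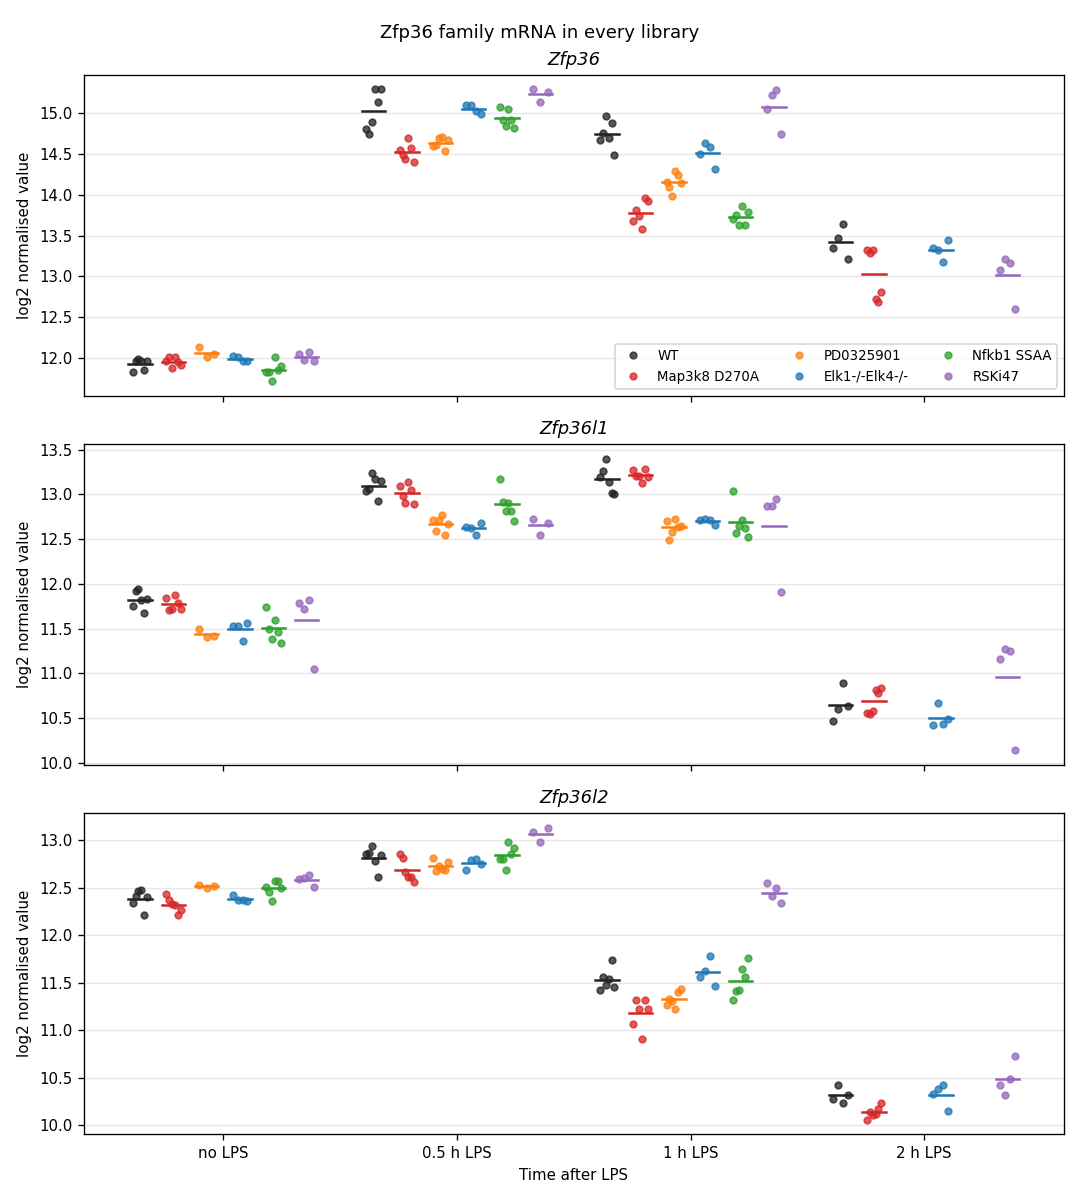
Log2 normalised level of Zfp36, Zfp36l1 and Zfp36l2 (vertical axes) in every library by genotype or inhibitor and LPS time (horizontal axis, 0, 0.5, 1 and 2 h), with points for libraries and bars for group means. The PD0325901 points without LPS are those after 10 min of the inhibitor. In WT cells Zfp36 peaks at a mean of 15.03 at 0.5 h, Zfp36l1 drops to 10.65 at 2 h and Zfp36l2 falls from 12.82 at 0.5 h to 10.32 at 2 h.

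Zfp36 rose with LPS in each arm. At 0.5 h of LPS the log2 difference of Zfp36 from unstimulated cells of the same arm was 2.57 in Map3k8[D270A], 3.06 in Elk1-/-Elk4-/-, 3.08 in Nfkb1[SS/AA], 2.62 with PD0325901 (against 40 min of the inhibitor alone) and 3.21 with RSKi47. At 1 h it was 1.82, 2.51, 1.87, 1.88 (against 70 min of PD0325901 alone) and 3.05, in the same order. All of these passed the test. Over all genes 5.08%, 4.96%, 14.6%, 14.9% and 5.10% passed at 0.5 h and 41.9%, 33.3%, 44.4%, 43.6% and 29.0% at 1 h, in the same order of arms. Zfp36 fell from 0.5 to 1 h by 1.21 on the log2 scale in Nfkb1[SS/AA] cells (adjusted p = 3.69e-24), where 31 genes fell further and 42.6% of genes passed. In the RSKi47 arm its fall came later, with a difference of -2.06 between 1 and 2 h (4.17-fold, adjusted p = 4.24e-34) that 17 genes exceeded, while 53.6% of genes passed. Without RSKi47 replicate 4 the responses of Zfp36 were 3.19 at 0.5 h and 3.14 at 1 h and the later fall was -2.03, and without Nfkb1[SS/AA] replicate 2 at 1 h the values of that arm were 1.87 at 1 h and -1.21 from 0.5 to 1 h.

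Zfp36l1 rose at 0.5 h by 1.06 (RSKi47) to 1.39 (Nfkb1[SS/AA]) on the log2 scale in the arms other than WT, and by 0.95 (PD0325901) to 1.44 (Map3k8[D270A]) at 1 h. At 2 h its difference from unstimulated cells was -1.09 in Map3k8[D270A], -0.99 in Elk1-/-Elk4-/- and -0.64 in RSKi47-treated cells. Without RSKi47 replicate 4 the responses in that arm were 0.88, 1.12 and -0.55 at 0.5, 1 and 2 h. Each of these passed the test, as did 69.5%, 67.2% and 62.2% of all genes at 2 h in these 3 arms. Between 0.5 and 1 h the Nfkb1[SS/AA] libraries differed by -0.20, with an adjusted p of 0.108 without pairing and of 7.26e-05 with the replicate number as a block. Without replicate 2 at 1 h the difference was -0.18 (adjusted p = 0.206, unpaired). The numbers pair the libraries within this arm.

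Zfp36l2 rose at 0.5 h by 0.34 to 0.48 in the arms other than WT and was below its starting level by the test at 1 h in these arms, except with RSKi47. In Map3k8[D270A], Elk1-/-Elk4-/-, Nfkb1[SS/AA] and PD0325901-treated cells the difference at 1 h was -1.15, -0.77, -0.98 and -1.25. With RSKi47 it was -0.14 (95% interval -0.28 to 0.01, adjusted p = 0.155), or -0.13 (adjusted p = 0.278) without replicate 4. At 2 h the values were -2.18 in Map3k8[D270A], -2.06 in Elk1-/-Elk4-/- and -2.10 in RSKi47-treated cells (-2.20 without replicate 4).

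**Figure D2:**
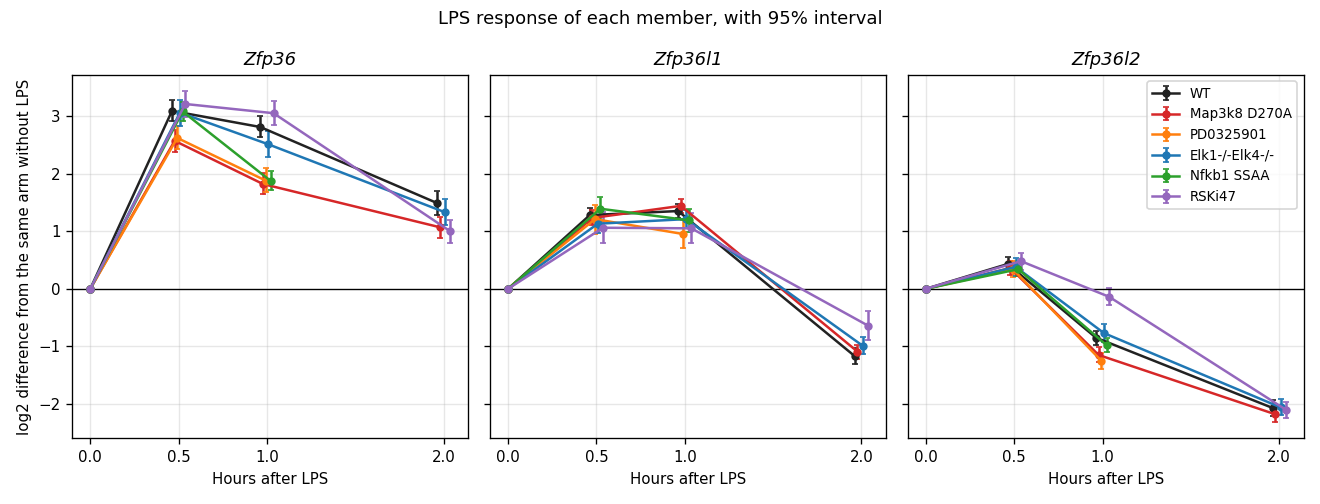
Log2 difference of each member from the same arm without LPS (vertical axes) against hours of LPS (horizontal axis), with 95% intervals from limma as bars. For PD0325901 the reference is the inhibitor alone for 40 min (0.5 h) or 70 min (1 h). The RSKi47 line of Zfp36l2 stays near 0 at 1 h (-0.14), where the WT line is at -0.85.

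Loss of TPL-2 kinase activity lowered Zfp36 after LPS and left Zfp36l1 without a detected difference. At 0.5 h Zfp36 ran from 14.40 to 14.70 in the 6 Map3k8[D270A] libraries (median 14.52) and at 1 h from 13.58 to 13.96 (median 13.77), in both cases below every WT library. At 2 h it ran from 12.69 to 13.32 (median 13.05), and 3 of 6 libraries were below all WT libraries. Without LPS the mutant libraries, at 11.88 to 12.02, overlapped those of WT. The log2 difference from WT was 0.03 (adjusted p = 0.957) without LPS, -0.50 (SE 0.09, adjusted p = 4.04e-04) at 0.5 h, -0.96 (SE 0.09, adjusted p = 9.46e-12) at 1 h and -0.40 (SE 0.10, adjusted p = 0.00245) at 2 h. The value at 1 h is a 1.95-fold reduction, and 36 genes were reduced further. Over all genes 1.44%, 1.37%, 9.79% and 27.7% passed at these times in either direction, and at 0.5 and 1 h the groups did not overlap for 1.65% and 4.89% of genes.

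The libraries were also split by replicate number into 2 sets, which the labels do not mark. At 0.5 and 1 h the first set (WT 4 to 6, Map3k8[D270A] 1 to 3) gave differences of Zfp36 of -0.32 and -1.06, the second (WT 7 to 9, Map3k8[D270A] 4 to 6) -0.68 and -0.87. At 2 h it was -0.18 (adjusted p = 0.0503) in the first set and -0.48 in the second, where the only WT library was assumed to vary like the other groups. The LPS response itself was smaller than in WT cells, with a difference of responses of -0.99 (adjusted p = 2.80e-07) at 1 h and -0.42 (adjusted p = 0.0280) at 2 h, of which the latter lost its call when any of 6 replicates was left out singly, each at all its times, and was -0.21 (adjusted p = 0.147) in the first set and -0.51 (adjusted p = 0.100) in the second. At 0.5 h it was -0.53 (adjusted p = 0.119, or 0.0146 with the libraries of all arms in 1 fit), with -0.34 (adjusted p = 0.898) in the first set, -0.71 (adjusted p = 0.0321) in the second and -0.59 (adjusted p = 0.0468) without WT replicate 5. The share of genes whose responses differed was 2.02% at 1 h, 15.5% at 2 h and 0.109% at 0.5 h.

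Zfp36l1 ran from 13.13 to 13.28 at 1 h in Map3k8[D270A] cells (median 13.21), inside the WT range. Its log2 difference from WT was -0.04, -0.09, 0.04 and 0.03 at 0, 0.5, 1 and 2 h, and at 1 h the 95% interval was -0.08 to 0.17. Zfp36l2 ran from 10.91 to 11.32 at 1 h (median 11.22), below every WT library, and its difference was -0.36 (SE 0.06, adjusted p = 2.45e-05), with -0.28 in the first set and -0.43 in the second. Its LPS response at 1 h differed from that of WT cells by -0.29 (adjusted p = 0.0583), which passed with the libraries of all arms in 1 fit (adjusted p = 0.0320) and without Map3k8[D270A] replicate 5 (adjusted p = 0.0293). At 2 h it ran from 10.06 to 10.24 with 5 of 6 libraries below WT, and the difference of -0.18 was close to the threshold (adjusted p = 0.0446). That call was lost without the filter on low values (adjusted p = 0.0627). It was also lost without WT replicate 4, 5 or 7 or Map3k8[D270A] replicate 1, 2 or 3. At 0 and 0.5 h the differences of Zfp36l2 were -0.06 and -0.13 (adjusted p = 0.764 and 0.360).

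Within the same libraries the allele moved Zfp36 more than it moved its relatives. The level of Zfp36 minus that of Zfp36l1 at 1 h averaged 1.57 ± 0.15 in WT (SD, n = 6) and 0.56 ± 0.12 in Map3k8[D270A] cells (SD, n = 6), a difference of -1.01 (exact two-sided permutation test, p = 0.00216, the smallest that 6 against 6 libraries allow). For Zfp36 minus Zfp36l2 the values were 3.21 ± 0.15 and 2.60 ± 0.08, a difference of -0.61 with the same exact p = 0.00216, and adjustment over both tests left each p as it was.

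Zfp36 was also lower in Nfkb1[SS/AA] cells, in which TPL-2 is not released from p105, at 1 h and not detectably so at 0.5 h. At 1 h Zfp36 ran from 13.63 to 13.86 in the 6 Nfkb1[SS/AA] libraries (median 13.72), below every WT library, whereas at 0.5 h it ran from 14.82 to 15.07 (median 14.92), inside the WT range. The log2 difference from WT was -0.09 (adjusted p = 0.424) at 0.5 h and -1.02 (SE 0.08, adjusted p = 4.54e-19) at 1 h, or 2.02-fold, and 78 of 11971 genes were reduced further. Over all genes 32.3% at 0.5 h and 42.5% at 1 h passed the threshold in this comparison, and at 1 h 12.8% had groups apart. The LPS response at 1 h differed from that of WT cells by -0.94 (adjusted p = 7.90e-10), which 6.07% of genes did in either direction, and at 0.5 h by -0.02, with 0.309% of genes called. Without replicate 2 at 1 h the difference from WT was -1.02 and that of responses -0.94, as before.

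Zfp36l1 was lower in Nfkb1[SS/AA] cells without LPS as well as at 1 h. It ran from 11.34 to 11.74 without LPS (median 11.48), 12.70 to 13.17 at 0.5 h (median 12.87) and 12.53 to 13.04 at 1 h (median 12.63). Set against WT, the differences were -0.32 (adjusted p = 0.0123, with 32.0% of genes called), -0.21 (adjusted p = 0.119) and -0.49 (adjusted p = 6.56e-05) at the 3 times, and the LPS response at 1 h differed by -0.17 (adjusted p = 0.626). Without replicate 2 at 1 h these values were -0.46 (adjusted p = 3.24e-04) and -0.14 (adjusted p = 0.876). Zfp36l2, at 11.32 to 11.76 at 1 h (median 11.49), overlapped WT, with differences of 0.11, 0.02 and -0.01 (adjusted p = 0.140 without LPS and 0.881 at 1 h). Without replicate 2 its difference at 1 h was 0.01 (adjusted p = 0.915).

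With PD0325901, Zfp36 was lower than in untreated WT cells at both LPS times. It ran from 14.53 to 14.71 at 0.5 h (median 14.64) and from 13.98 to 14.29 at 1 h (median 14.16). All 6 libraries at each time were below those of WT, as was the case, in either direction, for 16.3% and 17.9% of genes. The log2 difference was -0.39 (SE 0.08, adjusted p = 1.53e-04) at 0.5 h and -0.59 (SE 0.08, adjusted p = 1.13e-08) at 1 h, with 29.4% and 35.7% of all genes called in either direction. Measured from the inhibitor alone, the LPS response was smaller than in WT cells, with a difference of responses of -0.47 (adjusted p = 0.0397) at 0.5 h and -0.93 (adjusted p = 7.68e-08) at 1 h, where 1.49% and 3.58% of genes passed. The reference at 1 h, 70 min of PD0325901 alone, was at 12.25 to 12.29, above every unstimulated WT library (11.83 to 11.99). This gap, which was not tested, is part of the difference of responses at 1 h, which exceeds the level difference of -0.59. The call at 0.5 h was lost when any of 7 replicates was left out singly. When the 6 libraries were averaged as 3 pairs, in case they repeat 3 cultures, the adjusted p was 0.136 at 0.5 h and 2.52e-06 at 1 h.

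The level of Zfp36 without LPS did not move detectably with the inhibitor. It was 12.13, 12.10 and 12.09 with DMSO, 12.14, 12.01 and 12.05 after 10 min of PD0325901, 11.99, 12.05 and 12.02 after 40 min and 12.29, 12.25 and 12.27 after 70 min. The 70 min libraries were the highest of these, at a log2 difference from 10 min with an adjusted p of 0.379, in a comparison where 6.09% of genes passed (3.58% from 10 to 40 min). Between PD0325901 and DMSO at 10 min the difference was -0.04 for Zfp36, -0.06 for Zfp36l1 and 0.05 for Zfp36l2. In that comparison limma called 0 of 11971 genes, with 245 at an unadjusted p below 0.05.

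Zfp36l1 with PD0325901 ran from 12.55 to 12.77 at 0.5 h (median 12.69) and from 12.49 to 12.73 at 1 h (median 12.64), below every WT library, with log2 differences from WT of -0.43 (adjusted p = 7.53e-04) and -0.54 (adjusted p = 1.48e-05). Without LPS it was at 11.56, 11.48 and 11.48 with DMSO alone and 11.45, 11.49 and 11.43 after 40 min of PD0325901, all below the lowest WT library (11.67), whereas after 70 min of PD0325901, the reference for 1 h of LPS, it was at 11.64, 11.70 and 11.69 and overlapped WT. The LPS responses differed from that of WT cells by -0.07 (adjusted p = 0.962) at 0.5 h and -0.40 (adjusted p = 0.204) at 1 h, and the latter passed with only the WT, DMSO and PD0325901 libraries in the fit (adjusted p = 0.00593). The PD0325901 libraries at 1 h held more RNA of neutrophil and granulocyte precursor genes than WT (summed level 7.90 to 8.46 against 6.21 to 7.51), whose part in these values was not tested. Zfp36l2 ran from 12.68 to 12.81 at 0.5 h (median 12.72) and from 11.23 to 11.44 at 1 h (median 11.32), overlapping WT. Its difference from WT was -0.09 (adjusted p = 0.247) and -0.20 (adjusted p = 0.00405), and its response at 1 h differed by -0.40 (adjusted p = 0.00270). The 70 min reference of Zfp36l2, at 12.52 to 12.61, was above every unstimulated WT library (12.21 to 12.48), and this gap is part of the -0.40.

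In Elk1-/-Elk4-/- cells the level of Zfp36, whose promoter holds an ETS motif and a CArG box, was close to that in WT cells. These cells still carry Elk3, which encodes another ternary complex factor. The 4 libraries were at 12.03, 12.02, 11.96 and 11.97 without LPS, at 15.10, 15.10, 15.03 and 14.99 at 0.5 h, at 14.50, 14.63, 14.59 and 14.31 at 1 h and at 13.35, 13.33, 13.18 and 13.45 at 2 h. At every time they overlapped the WT libraries. In order of time they differed from WT by 0.06, 0.03, -0.24 and -0.09, and the value at 1 h was at the threshold itself (SE 0.10). Its adjusted p lay just below 0.05, was 0.0731 without the filter on low values and ranged from 0.0181 to 0.226 when single replicates were left out. The LPS response at 1 h differed from that of WT cells by -0.30 (adjusted p = 0.662).

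Zfp36l1 was lower in Elk1-/-Elk4-/- cells without LPS and at 0.5 and 1 h. It was at 11.53, 11.53, 11.36 and 11.56 without LPS, 12.64, 12.62, 12.55 and 12.68 at 0.5 h, 12.71, 12.73, 12.71 and 12.66 at 1 h and 10.42, 10.67, 10.43 and 10.49 at 2 h. Except at 2 h, all of these were below the WT libraries. The log2 difference was -0.33 (adjusted p = 9.19e-05), -0.48 (adjusted p = 2.01e-07), -0.47 (adjusted p = 1.29e-07) and -0.15 (adjusted p = 0.0996), and the LPS responses of this member did not differ detectably from those of WT cells at any time, while those of 0.0589%, 1.35% and 16.9% of genes did at 0.5, 1 and 2 h. The background of this comparison was high, with 51.8%, 44.4%, 53.4% and 50.8% of genes called at the 4 times and 38.9%, 29.3% and 36.6% of genes with groups apart at the first 3. The Elk1-/-Elk4-/- libraries also held more RNA of 8 neutrophil and granulocyte precursor genes, whose summed level at 1 h was 10.05 to 10.24 against 6.21 to 7.51 in WT, while Ly6g, Mpo and Elane were low in every library of the series (at most 0.60, 2.23 and 0.95). The part of such cells in the values of Zfp36l1 was not tested. Zfp36l2 was at 11.56, 11.63, 11.78 and 11.47 at 1 h and had log2 differences of -0.01, -0.06, 0.08 and 0.01 at the 4 times, none of which passed.

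Without LPS, Zfp36l1 was thus below WT by the test in Elk1-/-Elk4-/- and Nfkb1[SS/AA] cells, both outside the TPL-2 experiment. The DMSO libraries, which hold neither a mutation nor an active inhibitor, had a log2 difference from WT of -0.32 (adjusted p = 0.0575). This passed with only the WT, DMSO and PD0325901 libraries in the fit (adjusted p = 0.00105), with each library centred on its median (-0.33, adjusted p = 0.0494) and without WT replicate 8 (-0.35, adjusted p = 0.0400). The arm and the experiment cannot be told apart in these values. Zfp36 and Zfp36l2 were 0.17 and 0.08 above WT in the DMSO libraries (adjusted p = 0.221 and 0.477), and 23.6% of genes passed in that comparison.

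With RSKi47, Zfp36l2 at 1 h was higher than in WT cells. Its level was 12.55, 12.41, 12.50 and 12.34 at 1 h, above all 6 WT libraries, of which the highest was 11.74. It was 12.59, 12.60, 12.64 and 12.51 without LPS, 13.09, 12.98 and 13.13 at 0.5 h and 10.43, 10.32, 10.49 and 10.73 at 2 h. At 0, 0.5 and 1 h no library overlapped WT, which held for 38.5%, 42.5% and 32.6% of all genes. Zfp36l2 was above WT by 0.20 (adjusted p = 0.00679) without LPS, 0.25 (adjusted p = 0.00294) at 0.5 h, 0.92 (SE 0.07, adjusted p = 1.80e-22) at 1 h and 0.17 (adjusted p = 0.0340) at 2 h. At 1 h this is 1.89-fold, and 156 of 11971 genes were raised further, with 52.8% of genes called in either direction (53.0%, 48.2% and 52.1% at 0, 0.5 and 2 h). The LPS response at 1 h differed from that of WT cells by 0.72 (adjusted p = 7.46e-09), and 15 genes had a larger positive difference of responses, with 5.54% of genes called. Without RSKi47 replicate 4 the level difference at 1 h was 0.95 (adjusted p = 1.10e-21) and the difference of responses 0.73, whereas the level difference at 2 h was 0.10 (adjusted p = 0.288). The differences without it were 0.23 without LPS and 0.25 at 0.5 h. The RSKi47 libraries at 1 h also had a higher summed level of 3 fibroblast genes, 4.93 to 7.29 against 3.75 to 4.75 in WT, with Pdgfra at -0.65 to -0.20 over all libraries, and the part of such cells in the values of the members was not tested.

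Zfp36 under RSKi47 was higher than in WT cells at 1 h and lower at 2 h. It was at 15.05, 15.22, 15.28 and 14.75 at 1 h, with 3 libraries above all of WT, and at 13.08, 13.22, 13.16 and 12.60 at 2 h, where the highest lay just below the lowest WT library, and 39.1% of genes had groups apart. The log2 difference was 0.08 without LPS, 0.20 (adjusted p = 0.0972) at 0.5 h, 0.33 (adjusted p = 0.00210) at 1 h and -0.41 (adjusted p = 4.37e-04) at 2 h. Without replicate 4 it was 0.10 without LPS, 0.20 (adjusted p = 0.0677) at 0.5 h, 0.44 at 1 h and -0.27 (adjusted p = 0.0199) at 2 h. The difference of LPS responses was 0.24 (adjusted p = 0.366) at 1 h and -0.49 (adjusted p = 0.00525) at 2 h, where 21.0% of genes passed, or 0.33 (adjusted p = 0.174) and -0.37 (adjusted p = 0.0478) without replicate 4.

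Zfp36l1 under RSKi47 depended on replicate 4, which was the lowest at each of its times. It was at 11.79, 11.72, 11.82 and 11.05 without LPS, 12.73, 12.55 and 12.68 at 0.5 h, 12.87, 12.87, 12.95 and 11.91 at 1 h and 11.16, 11.27, 11.25 and 10.14 at 2 h. At 0.5 and 1 h all libraries were below WT, and at 2 h the 3 libraries other than replicate 4 were above all of WT. The log2 difference was -0.23 (adjusted p = 0.0918), -0.44 (adjusted p = 0.00248), -0.52 (adjusted p = 8.13e-05) and 0.30 (adjusted p = 0.0392) at the 4 times. Without replicate 4 it was -0.05 without LPS, -0.44 at 0.5 h, -0.28 (adjusted p = 0.00184) at 1 h and 0.57 (adjusted p = 9.91e-09) at 2 h. With only the WT and RSKi47 libraries fitted by limma, the adjusted p was 0.0619 at 0.5 h and 0.203 at 2 h. The call at 2 h was also lost without the filter on low values (adjusted p = 0.0558), with median centring (adjusted p = 0.0659) and without some single replicates. The LPS response at 2 h differed from that of WT cells by 0.53 (adjusted p = 0.0183), or by 0.62 (adjusted p = 1.72e-05) without replicate 4. With only the WT and RSKi47 libraries in the fit its adjusted p was 0.176. The drop of Zfp36l1 between 1 and 2 h was -1.70 with RSKi47 (-1.67 without replicate 4) against -2.52 in WT cells, a contrast that was not tested.

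**Figure D3:**
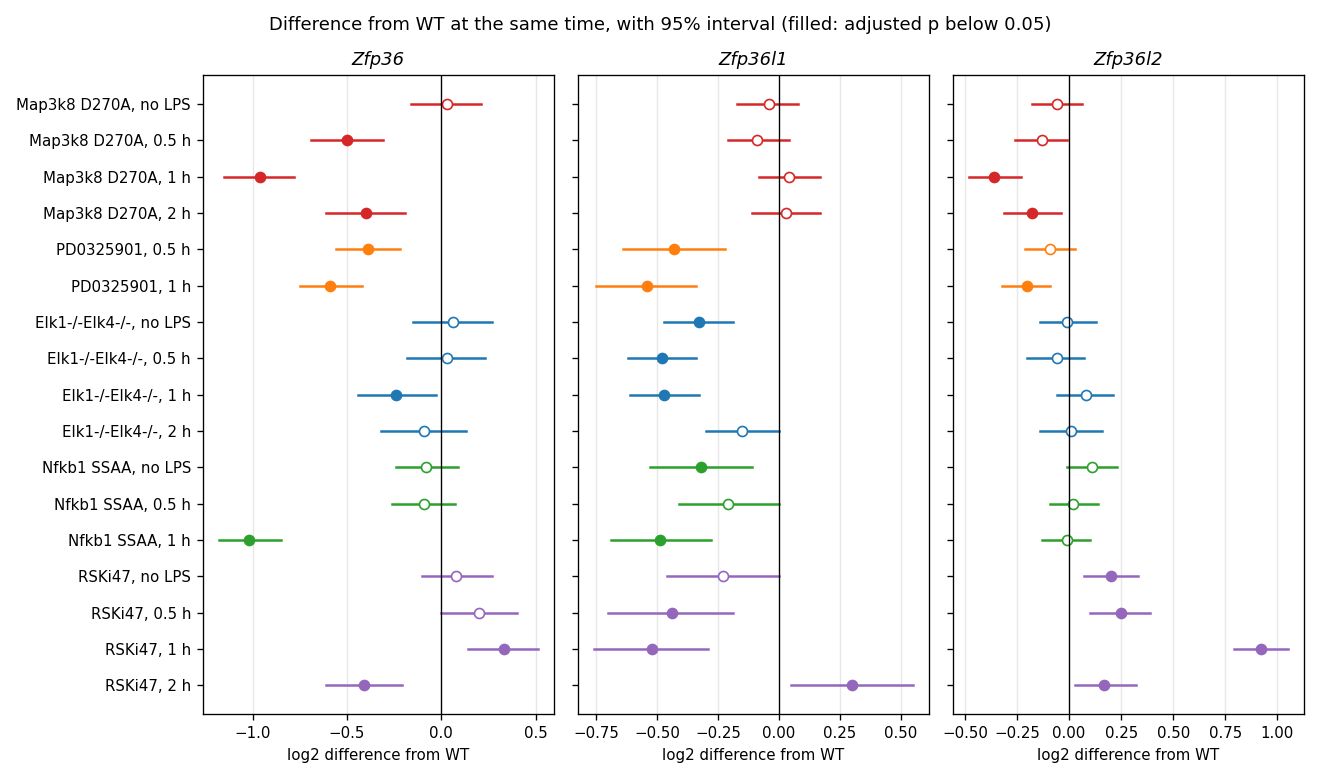
Log2 difference of each member from WT cells at the same LPS time (horizontal axes) by arm and time (vertical axis). Bars are 95% intervals from limma, and points are filled for an adjusted p below 0.05. At 1 h Zfp36 is lowest in Nfkb1[SS/AA] (-1.02) and Map3k8[D270A] (-0.96), and Zfp36l2 is highest with RSKi47 (0.92).

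Ordered by mean level at 1 h, Zfp36 was highest with RSKi47 (15.07), followed by WT (14.74), Elk1-/-Elk4-/- (14.51), PD0325901 (14.16), Map3k8[D270A] (13.78) and Nfkb1[SS/AA] (13.73). Each neighbour in this order differed from the next by the test except the last pair, with a difference of 0.05 (adjusted p = 0.631). The step from WT to Elk1-/-Elk4-/- passed here by limma (adjusted p = 0.0262). It was at the threshold in the fit used above and was lost without some single replicates. Neighbours were chosen by the same means that were tested. The order was tested with the libraries of all arms in 1 fit. In it 10.7% to 62.6% of genes passed between neighbours at 1 h over the 3 members. For Zfp36l1 the order was Map3k8[D270A] (13.22), WT (13.17), Elk1-/-Elk4-/- (12.70), Nfkb1[SS/AA] (12.69), RSKi47 (12.65) and PD0325901 (12.63), and the step from WT to Elk1-/-Elk4-/- was the only one that passed. For Zfp36l2 the order was RSKi47 (12.45), Elk1-/-Elk4-/- (11.61), WT (11.53), Nfkb1[SS/AA] (11.52), PD0325901 (11.33) and Map3k8[D270A] (11.18), in which neither Elk1-/-Elk4-/- and WT nor WT and Nfkb1[SS/AA] differed beyond their spread. Without the libraries that stand apart, RSKi47 came between WT and Nfkb1[SS/AA] for Zfp36l1 (12.90) and differed from both (adjusted p = 0.00169 and 0.047). For Zfp36 and Zfp36l2 leaving them out changed no order except that of WT and Nfkb1[SS/AA] for Zfp36l2, which still did not differ by the test. Without LPS no neighbouring pair differed for any member.

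The members were alike to different degrees over the series. Across the 25 group means, which share WT libraries and the LPS time course, Pearson's r was 0.70 between Zfp36 and Zfp36l1, 0.48 between Zfp36l1 and Zfp36l2 and 0.07 between Zfp36 and Zfp36l2. By the same measure over 11971 genes, 91 genes were closer to Zfp36 than Zfp36l1 was and 4286 than Zfp36l2 was, and 1476 were closer to Zfp36l1 than Zfp36l2 was. The 5 genes most like Zfp36 were Dusp1 (r = 0.968), which encodes a phosphatase of p38 and JNK, Junb (0.958), an AP-1 subunit, Ier3 (0.953), an immediate early gene, Ppp1r15a (0.926), which encodes GADD34, and Phlda1 (0.907). Those most like Zfp36l1 were Fam214b (0.935), Nuak2 (0.930), a kinase gene, Pmaip1 (0.915), which encodes the BH3-only protein NOXA, Gpr65 (0.913), a proton-sensing receptor gene, and Tgif1 (0.904), which encodes a homeobox repressor. Those most like Zfp36l2 were Mnt (0.966), which encodes a MAX partner, Rab3a (0.964), Sh2d3c (0.960), Xpc (0.960), which encodes a DNA repair factor, and Mettl13 (0.960).

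The targets of the family examined here were 20 mRNAs chosen with earlier results of these data known. Their counts describe this list and are no test of the family's targets in general. Of 20 known targets, all tested, 20 were higher at 1 h than without LPS, with a median log2 difference of 3.64 against 0.00 over all genes, of which 23.8% were called higher and 23.0% lower. Tnf rose by 4.72, Csf2, which encodes GM-CSF, by 5.39, and Lif by 3.97 on the log2 scale. In Map3k8[D270A] cells 16 of the 20 were lower than in WT at 1 h and 0 higher, with a median of -0.73, beside 4.64% of all genes called lower and 5.14% higher. The largest log2 differences among the targets were those of Lif (-1.97), Il23a, which encodes a subunit of IL-23 (-1.81), and Csf2 (-1.70), and that of Tnf was -0.57. The 4 targets that did not pass were Cxcl1 (-0.37), Il6 (-0.34), Ccl2 (-0.26) and Ccl4 (-0.23), which encode a chemokine for neutrophils, interleukin 6 and a pair of CC chemokines. Zfp36 and most of the listed targets were lower in the same libraries.

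At 1 h in the other arms, 16 of the 20 targets were lower and 1 higher in Nfkb1[SS/AA] cells (median -0.99, with 21.9% of all genes lower and 20.5% higher), 15 lower and 2 higher with PD0325901 (median -0.77, with 19.3% lower and 16.4% higher), and 11 lower and 3 higher in Elk1-/-Elk4-/- cells (median -0.29, with 26.2% lower and 27.2% higher). With RSKi47, in which Zfp36 and Zfp36l2 were above WT and Zfp36l1 below it, 17 were lower and 0 higher (median -0.62, with 26.3% lower and 26.5% higher), and without replicate 4 these were 13 and 1 (median -0.54). Without Nfkb1[SS/AA] replicate 2 the counts in that arm were 17 lower and 1 higher. All these comparisons use the same WT libraries. The log2 difference of Csf2 was -4.60 in Nfkb1[SS/AA], -2.24 with PD0325901, -1.14 in Elk1-/-Elk4-/- and -2.41 with RSKi47. That of Tnf was -0.17 (adjusted p = 0.0724), -0.22 (adjusted p = 0.0243), -0.62 (adjusted p = 2.93e-06) and -0.09 (adjusted p = 0.393) in the same order.

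The other times gave other counts for the targets. In WT cells 19 were higher and 0 lower at 0.5 h of LPS (median 1.45, with 7.82% of all genes higher and 3.81% lower), and 17 were higher and 2 lower at 2 h (median 3.12, with 34.7% higher and 36.8% lower). Those lower at 2 h were Fos (-1.55), an AP-1 subunit gene, and Vegfa (-1.35), which encodes a growth factor of blood vessels. At 0.5 h 11 were higher and 2 lower in Elk1-/-Elk4-/- cells (median 0.52, with 44.4% of all genes called, 22.4% as higher), opposite in direction to 1 h, and 6 were higher and 6 lower in Nfkb1[SS/AA] cells (median -0.17, with 16.7% higher and 15.6% lower). At the same time 5 were lower in Map3k8[D270A] cells (with 0.892% of all genes lower and 0.480% higher), 7 with PD0325901 (with 29.4% of all genes called, 14.5% as higher) and 11 with RSKi47 (24.5% lower and 23.7% higher), with 0 targets higher in each of these arms. At 2 h 17 were lower and 0 higher in Map3k8[D270A] cells (median -1.02, with 13.1% lower and 14.6% higher), 13 lower and 1 higher in Elk1-/-Elk4-/- cells (23.1% and 27.7%) and 11 lower and 4 higher with RSKi47 (24.6% and 27.5%), or 8 and 5 without replicate 4.

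Among the 12 genes tested of the p38-MK2 pathway and its counterparts, which set the phosphorylation of TTP, 8 rose and 1 fell in WT cells at 1 h of LPS, beside 23.8% of all genes higher and 23.0% lower. In Map3k8[D270A] cells 3 were lower than in WT at 1 h and 0 higher, beside 4.64% of all genes lower and 5.14% higher. These were Dusp1 (-0.76), Map2k3 (-0.46), which encodes the p38 activator MKK3, and Mapkapk2 (-0.24), which encodes MK2. At 2 h 10 of the 12 were lower and 0 higher (median -0.20), beside 13.1% of all genes lower and 14.6% higher. Of 19 genes of deadenylation, 9 rose and 2 fell with LPS in WT cells, with Btg2 at 1.77 and Btg1 at 1.32, both encoding proteins that recruit CCR4-NOT. In Map3k8[D270A] cells 3 of them were lower and 1 higher at 1 h, the lower ones being Btg2 (-1.0), Btg1 (-0.48) and Tob2 (-0.17), all of the BTG/TOB family.

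Other proteins that bind mRNA elements gave 9 higher and 2 lower of 16 tested with LPS in WT cells, where Zc3h12a, which encodes the ribonuclease Regnase-1, rose by 2.55. In Map3k8[D270A] cells 2 were lower, Zc3h12a (-0.29, adjusted p = 0.00213) and Zc3hav1 (-0.17, adjusted p = 0.0198), and 0 were higher, beside 4.64% of all genes lower and 5.14% higher. Zc3h12d was at 0.15 (adjusted p = 0.0657). Of 19 decapping and 5′ decay genes, 3 rose and 4 fell with LPS in WT cells, and of 14 exosome and SKI genes 1 rose and 6 fell, shares near or below those over all genes (23.8% higher and 23.0% lower) except for the exosome genes that fell. In Map3k8[D270A] cells at 1 h limma called 0 of either list, with 2 and 4 genes at an unadjusted p below 0.05. The largest differences were those of Gigyf2 (0.13) and of Exosc3 and Exosc7 (-0.12 each).

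**Figure D4:**
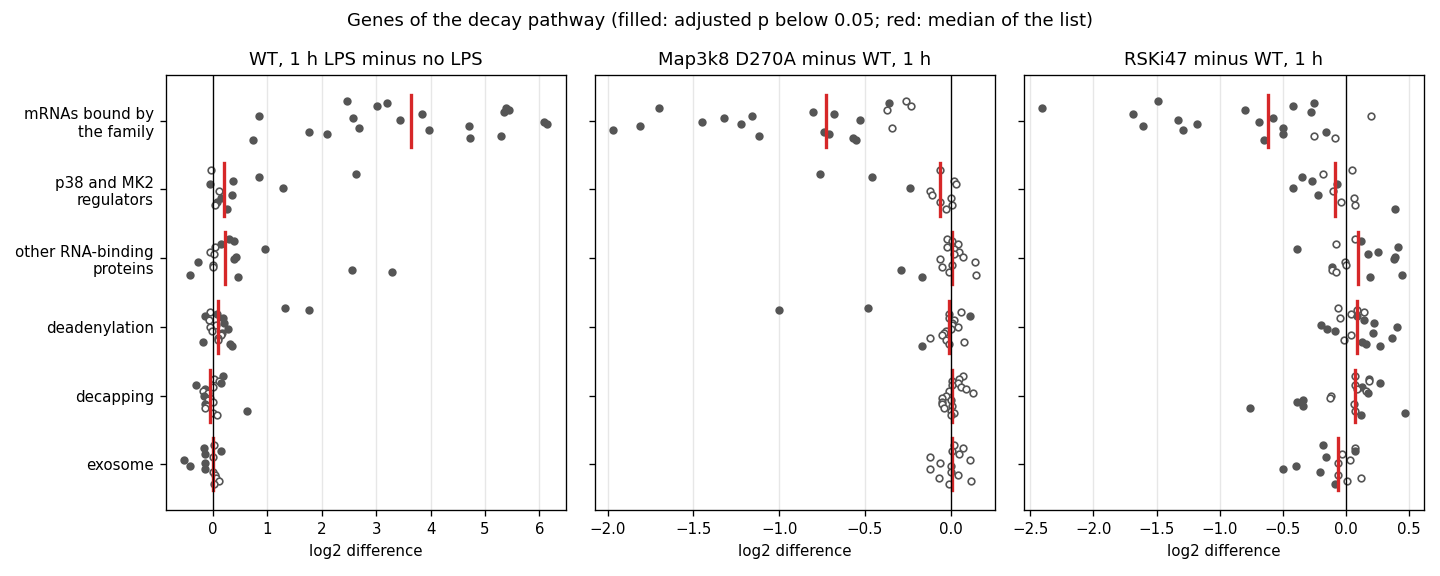
Log2 difference (horizontal axes) of each gene of 6 lists. The lists (vertical axis) are known targets, p38-MK2 pathway, other element-binding proteins, deadenylation, decapping and exosome. The panels are LPS at 1 h in WT cells, Map3k8[D270A] minus WT at 1 h and RSKi47 minus WT at 1 h. Points are genes, filled where the adjusted p was below 0.05, and red lines are list medians, which for the targets are 3.64, -0.73 and -0.62.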

How the data were processed

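RNA of BMDM cultures was sequenced in 25 groups of libraries. By the methods of the study the reads were single-end and strand-specific. The submitters' processing notes name STAR 2.5.1b, RSEM 1.2.29, DESeq2 1.10.1 and mm10. The values that the authors deposited are normalised, 1 per gene and library, on a log2 scale. Their transformation is not stated, and if it drew differences together, the folds printed (2 to the power of the difference) are too small. The study gives only a typical yield of reads, and the depth of each library is unknown, so precision rests on the replicates. A single value above 25, of no member, was treated as missing.

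Groups came from the labels and were compared by limma 3.58.1 (R 4.3.3), two-sided, without trend, on values as deposited. Map3k8[D270A] and Elk1-/-Elk4-/- were fitted with WT (62 libraries, 11884 genes that reached 10 on the linear scale in 4 libraries), and the other arms in a fit of all libraries (11971 genes, 3 libraries). P values were adjusted by Benjamini-Hochberg over all genes tested, and a gene was called at an adjusted p below 0.05. Intervals (95%) are from limma's moderated statistic. The difference of LPS responses is an interaction contrast. Permutation tests used scipy 1.17.1 (Python 3.11.15), and figures matplotlib 3.10.9. The fit was tested on simulated data with 200 changed genes.

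Same-numbered libraries deviated together within WT (30 of 30 correlations over 0.1), Nfkb1[SS/AA] (18 of 18), Map3k8[D270A] (34 of 36), RSKi47 (20 of 21), Elk1-/-Elk4-/- (20 of 24) and PD0325901 (5 of 6), but not between arms (4 of 27). The pairing within an arm comes from these deviations, since the labels only share the numbers. Alternatives were the low-value filter, the libraries fitted, median centring, single replicates left out, the 2 sets of replicates, a replicate block, a further fold threshold for lists, and, chosen after seeing the data, leaving out Nfkb1[SS/AA] replicate 2 at 1 h (with RSKi47 replicate 4 for target counts and orders) and averaging PD0325901 libraries. The members, gene lists and the rule for named genes (members, the 5 genes most like each, and in each list the 3 largest differences in Map3k8[D270A] cells at 1 h, plus genes needed to describe exceptions) were chosen with earlier results of these data known.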

Additional observations from a re-analysis of the deposited data

Results flagged for a closer look

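In 60 groups of 4 to 6 libraries, the highest or lowest value of a member lay farther from the others than the 95% critical value of Dixon's test in 4, where chance gives about 3.0 (1 in 20). All 4 concern Zfp36l1. RSKi47 replicate 4 was lowest without LPS (11.05), at 1 h (11.91) and at 2 h (10.14), and Elk1-/-Elk4-/- replicate 3 was lowest without LPS (11.36). RSKi47 replicate 4 also stood apart over all genes, and the part of this in the value of Zfp36l1 was not tested.

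The LPS response of a member differed from that of WT cells by limma's interaction contrast in 9 cases. For Zfp36 the difference of responses was -0.99 at 1 h and -0.42 at 2 h in Map3k8[D270A] cells, -0.94 at 1 h in Nfkb1[SS/AA] cells, -0.47 at 0.5 h and -0.93 at 1 h with PD0325901, and -0.49 at 2 h with RSKi47. For Zfp36l2 it was -0.40 at 1 h with PD0325901 and 0.72 at 1 h with RSKi47, and for Zfp36l1 it was 0.53 at 2 h with RSKi47. With the libraries of all arms in 1 fit, those of Zfp36 at 0.5 h (-0.53) and Zfp36l2 at 1 h (-0.29) in Map3k8[D270A] cells passed as well. With only the arm and its control in the fit, that of Zfp36l1 with RSKi47 did not pass and that of Zfp36l1 with PD0325901 at 1 h (-0.40) did. All these contrasts share the WT libraries.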

How the results depend on the processing

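Of 1140 values of the members recomputed for the LPS response of WT cells, the comparisons of mutant or inhibitor-treated cells with WT and that of PD0325901 with DMSO, 1093 kept their direction and side of the threshold, 38 lost the call and 9 gained one. Of 1509 other values, those of DMSO against WT among them, 1474 kept theirs. Without the filter, calls were lost for Zfp36l2 in Map3k8[D270A] at 2 h (-0.18), Zfp36 in Elk1-/-Elk4-/- at 1 h (-0.24) and Zfp36l1 with RSKi47 at 2 h (0.30). With only the arm and its control fitted, calls were gained for the difference of LPS responses of Zfp36l1 with PD0325901 at 1 h (-0.40) and for Zfp36l1 with DMSO (-0.32, also gained with median centring), and they were lost for Zfp36l1 with RSKi47 at 0.5 and 2 h (-0.44 and 0.30) and Zfp36l2 with RSKi47 at 2 h (0.17) and for the difference of LPS responses of Zfp36l1 with RSKi47 at 2 h (0.53), and with median centring for both of these members at 2 h (0.27 for Zfp36l1 and 0.14 for Zfp36l2). The first set of replicates lost Zfp36 in WT from 0.5 to 1 h (-0.02) and in Map3k8[D270A] at 2 h (-0.18), and the second lost Zfp36l2 in Map3k8[D270A] at 2 h (-0.14). Measured as a difference of LPS responses, Zfp36l1 with PD0325901 lost its calls (-0.07 at 0.5 h and -0.40 at 1 h). The numbers do not pair libraries between arms, and the replicate block there added calls for Zfp36l2 in Map3k8[D270A] (-0.18) and Zfp36l1 in Nfkb1[SS/AA] (-0.31), both at 0.5 h. Zfp36l1 with RSKi47 from 0.5 to 1 h was near 0 (adjusted p = 0.989), but ranged from -0.13 to 0.24 (without replicate 4) when single replicates were left out and was 0.23 with the replicate block within the arm. Within arms the block changed no other call than these and that of Zfp36l1 in Nfkb1[SS/AA] cells given above (-0.20). The cause of these changes was not tested. The differences of LPS responses were not run with a block, so they leave out the pairing within arms.

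When single replicates were left out, each at all of its times, some calls changed. Zfp36 in Elk1-/-Elk4-/- cells at 1 h (-0.29 to -0.17) was lost without WT replicate 5, 6 or 8 or Elk1-/-Elk4-/- replicate 1, 3 or 4, and Zfp36 in WT from 0.5 to 1 h (-0.35 to -0.18) without WT replicate 7 or 9. Zfp36l2 in Map3k8[D270A] cells at 2 h (-0.20 to -0.14) was lost without WT replicate 4, 5 or 7 or Map3k8[D270A] replicate 1, 2 or 3, and Zfp36l2 with RSKi47 at 2 h (0.10 to 0.23) without WT replicate 4, 6 or 7 or RSKi47 replicate 3 or 4. Zfp36l1 with RSKi47 at 2 h (0.20 to 0.57) was lost without WT replicate 4, 5 or 7 or RSKi47 replicate 1, 2 or 3. Calls were gained for Zfp36 with RSKi47 at 0.5 h (0.14 to 0.25) without WT replicate 7 or 9, Zfp36l1 in Elk1-/-Elk4-/- cells at 2 h (-0.21 to -0.07) without WT replicate 4 or Elk1-/-Elk4-/- replicate 2, Zfp36l1 in Nfkb1[SS/AA] cells at 0.5 h (-0.26 to -0.17) without their replicate 1 and Zfp36l1 with RSKi47 without LPS (-0.30 to -0.05) without RSKi47 replicate 1 or 3. Of the differences of LPS responses, that of Zfp36 in Map3k8[D270A] cells at 2 h (-0.50 to -0.35) was lost without WT replicate 4, 5 or 6 or Map3k8[D270A] replicate 4, 5 or 6, that of Zfp36 with PD0325901 at 0.5 h (-0.54 to -0.43) without WT replicate 7, 8 or 9 or PD0325901 replicate 1, 2, 3 or 5, and that of Zfp36l1 with RSKi47 at 2 h (0.46 to 0.62) without WT replicate 4 or 5 or RSKi47 replicate 2. With a further threshold of 1 on the log2 scale, the genes called in Map3k8[D270A] cells at 1 h went from 16 to 8 for the targets and from 4, 3 and 2 to 0 for deadenylation, the p38-MK2 pathway and other binding proteins. With LPS in WT cells at 1 h they went from 11, 9 and 11 to 2 in each of these lists and from 7 to 0 in decapping and in the exosome, and from 20 to 18 for the targets.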
